A study of Homo sapiens with 8 samples.

Results

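EGFR, the epidermal growth factor receptor, and 9 genes that lie near it at 7p11.2 were followed through 8 RNA libraries. The members were 10 of the 63241 gene rows of the count table. They were chosen by their place around EGFR, and EGFR itself was singled out because its level in 1 library, control 4, had already been seen to be high. EGFR levels are therefore given as a description, without a test. Of the 10 members, 9 passed a filter on low counts and VSTM2A did not.

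The libraries are labelled as HSC3, an established line from a human oral squamous cell carcinoma. By their labels, 4 knockdown libraries received an siRNA against COL1A1 and 4 control libraries a non-targeting siRNA, each at 100 pmol in a lipid reagent, and RNA was taken after 48 hours. The siRNA acts transiently. Whether a group's libraries were grown as separate cultures is not labelled, so the tests below reflect library spread alone. COL1A1, the siRNA target, stood between 123 and 368 CPM (counts scaled by the column total) in knockdown and between 88.9 and 8183 CPM in control. Since the groups overlap for the target, "knockdown 1" and the other names below mean only the label and its replicate number.

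The libraries stood apart from each other more than the labels did. Total counts lay between 30684584 and 60200909 for knockdown, and between 32242870 and 61795990 for control. Summed over the list, 12 squamous epithelium markers took 2421 to 158707 CPM in knockdown and 882 to 69758 CPM in control, and every marker was above 0 in every library. Skeletal muscle markers (13 of 14 listed genes in the table) took 51.2 to 47418 CPM in knockdown and 99.5 to 150316 CPM in control. Salivary gland markers took 110724 CPM in knockdown 2 and 166107 CPM in control 1, and at most 8.47 CPM in the other 6 libraries. The labels name HSC3, a squamous carcinoma line, for every library, and give no source for the muscle and gland transcripts. Whether each library holds cells of this line alone was not tested, so the libraries cannot be taken as replicate cultures of it. In bulk RNA, fewer cells of a type and less RNA per cell cannot be told apart.

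EGFR is a receptor tyrosine kinase of the surface of epithelial cells. Ligands of the EGF family bind it, it pairs with itself or with its ERBB partners, and it signals through RAS and the ERK kinases, which in turn induce a set of feedback regulators. The band 7p11.2 is known from squamous carcinomas and from gliomas for DNA gains that take in EGFR together with genes beside it, and genes that lie inside such a gain tend to be expressed at higher levels. DNA was not measured in these libraries, so copy number was not tested, and only RNA levels are compared.

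The members lie within a stretch of chromosome 7 (GRCh38, GENCODE release 29). VSTM2A lies farthest towards the telomere, from 54542325 to 54571080, and SEC61G follows from 54752250 to 54759974. EGFR lies from 55019021 to 55211628 on the plus strand. LANCL2 (55365448 to 55433742) and VOPP1 (55436056 to 55572988) come next. PSPH (56011051 to 56051604), CCT6A (56051630 to 56063989), SUMF2 (56064002 to 56080670), PHKG1 (56080283 to 56092996) and CHCHD2 (56101569 to 56106576) form a tight group whose starts lie between 1032.6 and 1087.6 kb from the EGFR start. The starts of PSPH and CCT6A are 26 bases apart on opposite strands.

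RefSeq promoter windows starting at the gene's own 5′ end were matched for 7 of the 10 members. The 250 bases before the RefSeq start are shown for EGFR and CHCHD2, the ends set for the stretch examined below. They are also shown for PHKG1, which lies between these genes and was not high in control 4. RefSeq starts differ from the GENCODE starts given above. By the GENCODE positions, only the EGFR window lies wholly before its gene. The windows of VSTM2A, CHCHD2 and PHKG1 overlap their genes in part, and those of SEC61G, VOPP1 and SUMF2 lie inside them. Capitals mark the GC box GGGCGG on either strand, the letters bound by SP1 family factors. The windows are chr7:55018767-55019016 on the plus strand for EGFR, chr7:56106477-56106726 on the minus strand for CHCHD2 and chr7:56092953-56093202 on the minus strand for PHKG1 (GRCh38.p14).
EGFR: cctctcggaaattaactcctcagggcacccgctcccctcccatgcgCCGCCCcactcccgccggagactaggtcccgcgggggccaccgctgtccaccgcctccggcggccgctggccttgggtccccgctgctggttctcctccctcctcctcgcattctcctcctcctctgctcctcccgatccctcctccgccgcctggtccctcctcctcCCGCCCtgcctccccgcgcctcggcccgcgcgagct
CHCHD2: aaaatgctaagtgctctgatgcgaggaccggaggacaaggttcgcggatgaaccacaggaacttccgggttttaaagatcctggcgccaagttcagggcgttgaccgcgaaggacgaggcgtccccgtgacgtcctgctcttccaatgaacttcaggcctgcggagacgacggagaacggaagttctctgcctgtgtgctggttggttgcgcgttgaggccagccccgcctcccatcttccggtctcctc
PHKG1: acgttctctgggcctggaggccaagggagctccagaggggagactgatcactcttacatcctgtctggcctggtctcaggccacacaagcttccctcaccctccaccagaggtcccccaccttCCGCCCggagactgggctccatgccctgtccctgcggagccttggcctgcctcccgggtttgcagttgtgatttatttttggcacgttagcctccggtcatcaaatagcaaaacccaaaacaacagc

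The GC box occurs in 6 of the 7 matched windows, while 56.0% of 13820 RefSeq protein-coding windows of this length hold it. It was found at 3 places for VSTM2A, at 2 each for EGFR and SUMF2, at 1 each for SEC61G, VOPP1 and PHKG1, and at 0 for CHCHD2. The CCAAT letters occur in the windows of SEC61G, SUMF2 and CHCHD2 (35.2% of all windows), and none of the 7 windows holds TATAAA (9.63% of all windows) or CACGTG (7.87%). GC content was 73.6% for EGFR, 59.2% for CHCHD2 and 58.8% for PHKG1, with a median of 62.4% over all windows.

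EGFR stood at 2783, 199.6, 333.7 and 450.8 CPM in knockdown 1 to 4, and at 114.9, 396.1, 452.6 and 11162 CPM in control 1 to 4. Control 4 was the highest library and knockdown 1 the second, and the other 6 lay between 114.9 and 452.6 CPM. Control 4 held 28.2 times the median of the other 7 libraries. Against the other 6 libraries without knockdown 1, control 4 held 30.6 times and knockdown 1 held 7.63 times the median. Among the other 6, control 3 and knockdown 4, next to each other in the order of levels, differed by less than 2 CPM.

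The neighbours on the far side of EGFR from the telomere were high in the same libraries, in the same order. LANCL2, which encodes a LanC-like protein that binds abscisic acid and glutathione, stood at 92.4, 19.3, 16.6 and 17.5 CPM in knockdown 1 to 4 and at 14.3, 22.4, 21.1 and 413.9 CPM in control 1 to 4. Control 4 was 18.4 times the highest of the other 6 libraries and knockdown 1 was 4.12 times it. VOPP1, a vesicular protein first described as co-amplified with EGFR, stood at 116.8, 51.4, 10.0 and 23.5 CPM in knockdown and at 42.9, 51.7, 28.3 and 672.5 CPM in control. Its other 6 libraries spread over more than 5-fold, and control 4 and knockdown 1 both lay above all of them.

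The tight group farther along did the same, except for PHKG1. PSPH, the phosphatase of the last step of serine synthesis, stood at 129.6, 7.07, 7.52 and 16.7 CPM in knockdown 1 to 4 and at 8.64, 18.0, 12.8 and 342.2 CPM in control 1 to 4. CCT6A, a subunit of the chaperonin that folds actin and tubulin, stood at 804.3, 55.6, 76.4 and 98.5 CPM in knockdown and at 45.2, 108.3, 79.96 and 2180 CPM in control. Both genes had control 4 first and knockdown 1 second, at 31.9 and 12.1 times the median of the other 6 for PSPH and at 27.9 and 10.3 times for CCT6A. SUMF2, a protein of the endoplasmic reticulum related to the sulfatase modifying factor, stood at 302.9, 139.6, 44.9 and 59.7 CPM in knockdown and at 63.1, 106.3, 48.9 and 1567 CPM in control.

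CHCHD2, a mitochondrial protein of the intermembrane space, stood at 487.4, 102.9, 86.7 and 108.5 CPM in knockdown 1 to 4 and at 118.4, 113.2, 97.9 and 1617 CPM in control 1 to 4. Its other 6 libraries were close together, between 86.7 and 118.4 CPM, so the 13.7-fold gap from control 4 to the highest of them was wide against their spread. For knockdown 1 that gap was 4.12-fold.

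**Figure D1:**
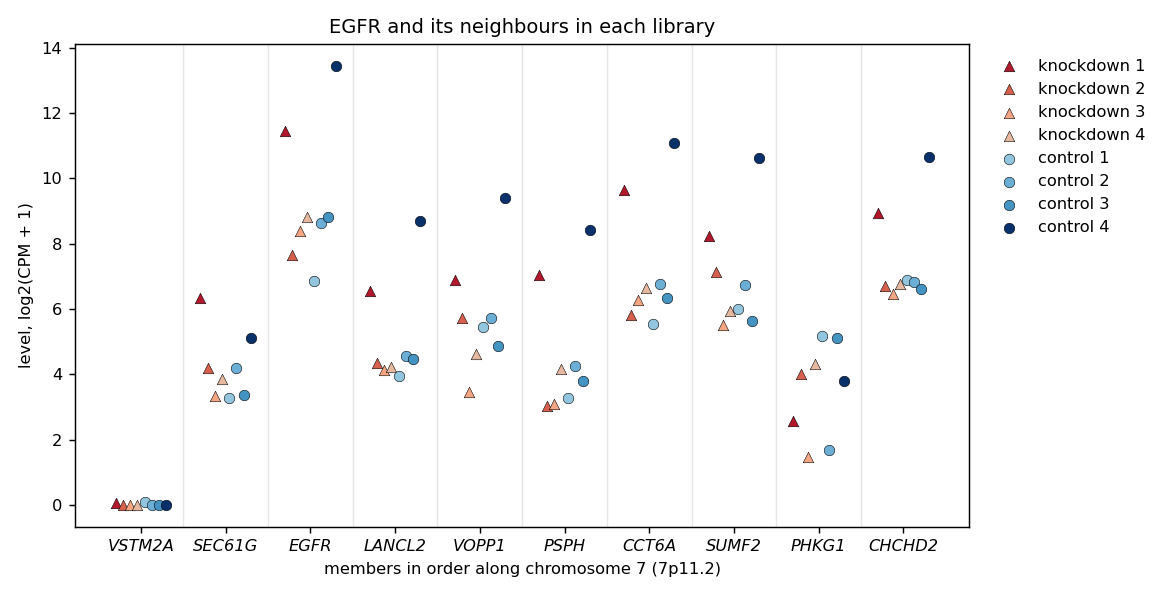
Level of each member in every library as log2(CPM + 1), with the genes in chromosome order on the horizontal axis; triangles are knockdown libraries and circles control libraries, 1 point per library. Control 4 (dark blue) lies above the other 7 libraries for EGFR, LANCL2, VOPP1, PSPH, CCT6A, SUMF2 and CHCHD2, with knockdown 1 (dark red) second in each.

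On the telomere side the pattern changed. SEC61G, the gamma subunit of the channel through which proteins enter the endoplasmic reticulum, stood at 79.7, 17.5, 8.997 and 13.5 CPM in knockdown 1 to 4 and at 8.67, 17.3, 9.37 and 33.4 CPM in control 1 to 4. Knockdown 1 was highest here and control 4 second, the reverse of EGFR. Control 4 held 1.91 times and knockdown 1 held 4.57 times the highest of the other 6 libraries. SEC61G was the only member for which control 4 lay above the other 6 but below knockdown 1: control 4 held 0.419 times the level of knockdown 1, against 2.64 to 5.76 times for LANCL2, VOPP1, PSPH, CCT6A, SUMF2, CHCHD2 and EGFR. VSTM2A, a secreted protein of the immunoglobulin superfamily, was at 0 in 6 libraries and at no more than 0.0544 CPM in the others. A count of 0 allows up to 0.0485 to 0.0978 CPM in these libraries (3 counts, counting error only), so VSTM2A was not detectable at this depth.

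PHKG1, the catalytic subunit of phosphorylase kinase in skeletal muscle, lies between SUMF2 and CHCHD2 but followed neither across all libraries. It stood at 4.93, 15.2, 1.76 and 19.1 CPM in knockdown 1 to 4 and at 35.3, 2.23, 33.5 and 12.9 CPM in control 1 to 4. The 4 libraries above control 4 were those with the most muscle transcripts, in which the muscle marker sum was 38804 CPM (knockdown 2), 47418 (knockdown 4), 150316 (control 1) and 149183 (control 3). In knockdown 1, knockdown 3 and control 2, where it was 52.7, 51.2 and 4432 CPM, PHKG1 lay below its level in control 4, where the sum was 99.5 CPM and 8 of 13 muscle markers were under 1 CPM. Among the 4 libraries with fewer muscle transcripts, control 4 was first and knockdown 1 second for PHKG1, as for SUMF2 and CHCHD2. The part of muscle transcripts in the PHKG1 result was not tested. PHKG1 and SUMF2 overlap by 388 bases on opposite strands, and without a stated strand setting reads of this overlap cannot be told apart.

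The differences were put on a common scale as the log2 of (CPM + 1) in control 4 minus the median of the other 7 libraries, with a difference of at least 1 counted as high (2-fold). Of the 9 neighbours, 7 were high in control 4, where 13.5% of the 21192 genes past the filter were. At 8-fold, 6 of 9 were high, where 0.585% of genes were. The median difference of the 9 neighbours was 3.94, against 0.05 over all genes past the filter, and EGFR itself was at 4.81. The 2 neighbours that were not high were PHKG1 at -0.22 and VSTM2A, which was not detectable.

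The same measure in each other library singled out knockdown 1. There, 7 of 9 neighbours were high, where 6.25% of genes past the filter were, and 2 of 9 were high at 8-fold, where 0.764% were. Their median difference was 2.20, against -0.17 over all genes. In each of the other 6 libraries, 0 or 1 of the 9 neighbours was high, and their medians ran from -0.87 to 0.26. Over all genes past the filter and these 6 libraries, 10.8% of the gene and library pairs were high. Control 4 was first and knockdown 1 second for 6 of the 9 neighbours, an order that 2.87% of genes past the filter had, and 20.2% had control 4 first. Both libraries were at least 2-fold above the median of the other 6 for 7 of the 9 neighbours, as were 3.36% of genes.

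All genes with a start between those of EGFR and CHCHD2 were then examined, members or not. The table has 40 rows there, over 1087.6 kb, of which 16 passed the filter. The genes named here beyond the members were chosen after their values were seen. Leaving EGFR out, 12 of 15 were high in control 4 and 9 of 15 at 8-fold, with a median difference of 3.60. These counts are not free of the way genes entered them. They hold EGFR-AS1, whose reads cannot be told from those of EGFR. They also hold FKBP9P1, which passed the filter only with its counts in control 4 included. The 3 that were not high were PHKG1, the pseudogene SUMO2P3 at -0.04 and the small nucleolar RNA gene SNORA22B at 0.88, and these last 2 were at no more than 1.59 CPM in any library. In knockdown 1, 11 of 15 were high, where 6.25% of genes past the filter were, with a median of 1.42. These 11 also hold EGFR-AS1 and FKBP9P1. The latter was at 1.54 CPM there, and it passed the filter only with its counts in knockdown 1 included as well.

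The non-member genes of the stretch with the largest difference included FKBP9P1, a pseudogene of a prolyl isomerase, with a difference of 4.84 and a level of 33.9 CPM in control 4 and 0.136 to 1.54 CPM in the other 7 libraries. A second row of the table with this symbol, for which no position was matched, stood at 68.5 CPM in control 4 and at 0.549 to 3.32 CPM in the other 7, and how reads were split between the rows is not known. FKBP9, the gene that FKBP9P1 copies, lies elsewhere on chromosome 7 and could share reads with these rows. It stood at 229.8 CPM in control 4 and at 62.9 to 145.1 CPM in the other 7. Its difference was 1.11 in control 4 and -0.24 in knockdown 1. ZNF713, a zinc finger gene, was at 3.60 and MRPS17, a subunit of the mitochondrial ribosome, at 3.22. NIPSNAP2, a mitochondrial protein, stood at 88.5, 101.9, 15.0 and 63.9 CPM in knockdown 1 to 4 and at 183.3, 37.4, 239.0 and 567.1 CPM in control 1 to 4. Control 4 was again highest, at a difference of 2.67, but controls 3 and 1, with the most muscle transcripts, came next, and knockdown 1 was at -0.20. MRPS17 and NIPSNAP2 overlap by 4683 bases and their starts are 26 bases apart, so their counts may share reads. EGFR-AS1, antisense to EGFR and overlapping it by 9185 bases, was at 2.99, and its reads cannot be told from those of EGFR.

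**Figure D2:**
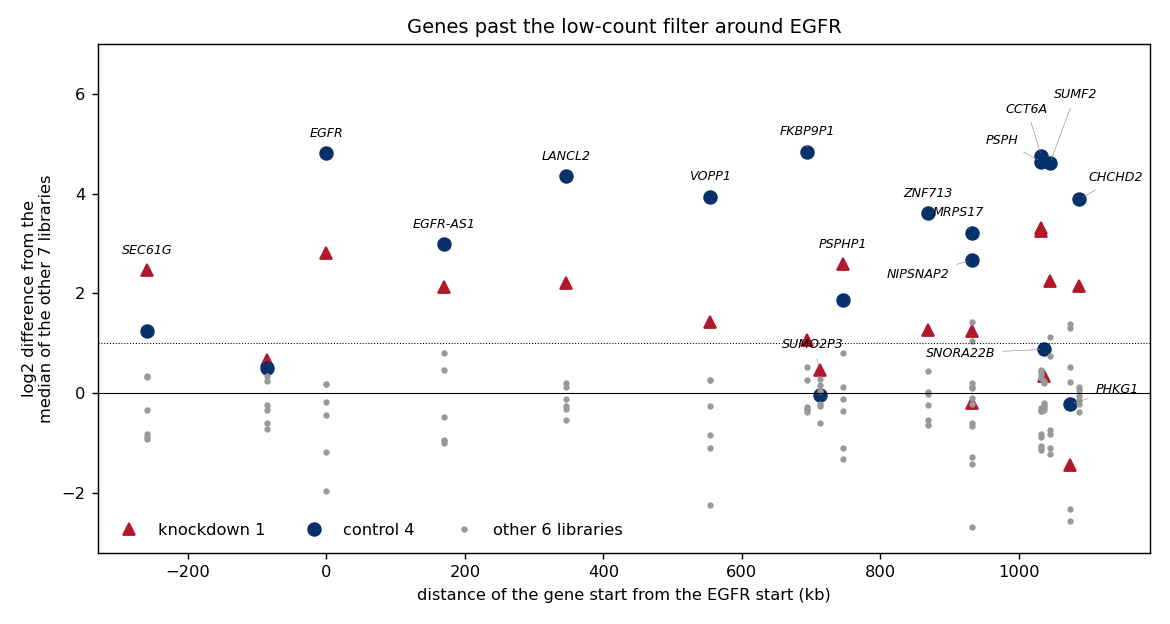
Each gene past the low-count filter around EGFR, by the distance of its start from the EGFR start in kb; the vertical axis is the log2 difference from the median of the other 7 libraries, for knockdown 1 (red triangles), control 4 (blue circles) and each of the other 6 libraries (grey), with the dotted line at 2-fold. From EGFR to CHCHD2, control 4 lies above the dotted line for 13 of 16 genes, EGFR included, and knockdown 1 for 12 of 16.

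Farther out, the median difference was low. Of the 23 genes past the filter within 5 Mb of the EGFR start, 15 were high in control 4, and 13 of these lie in the stretch from EGFR to CHCHD2. Of the 7 outside it, 2 were high (28.6%, against 13.5% of all genes past the filter), with a median of -0.18. The 2 were SEC61G at 1.24 and FIGNL1, a DNA repair ATPase, at 1.28. FIGNL1 stood at 82.6 CPM in knockdown 1, 26.9 CPM in control 4 and 5.57 to 21.1 CPM in the other 6. COBL, an actin nucleator, was at 0 in control 4 (up to 0.0577 CPM allowed) and at 8.06 to 147.8 CPM in the other 7 libraries, and GRB10, an adaptor that binds growth factor receptors, was at -1.97. On the centromere side, MIR3147HG was at -0.71. Over the 944 genes past the filter elsewhere on chromosome 7, 10.3% were high in control 4 and the median difference was 0.03.

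**Figure D3:**
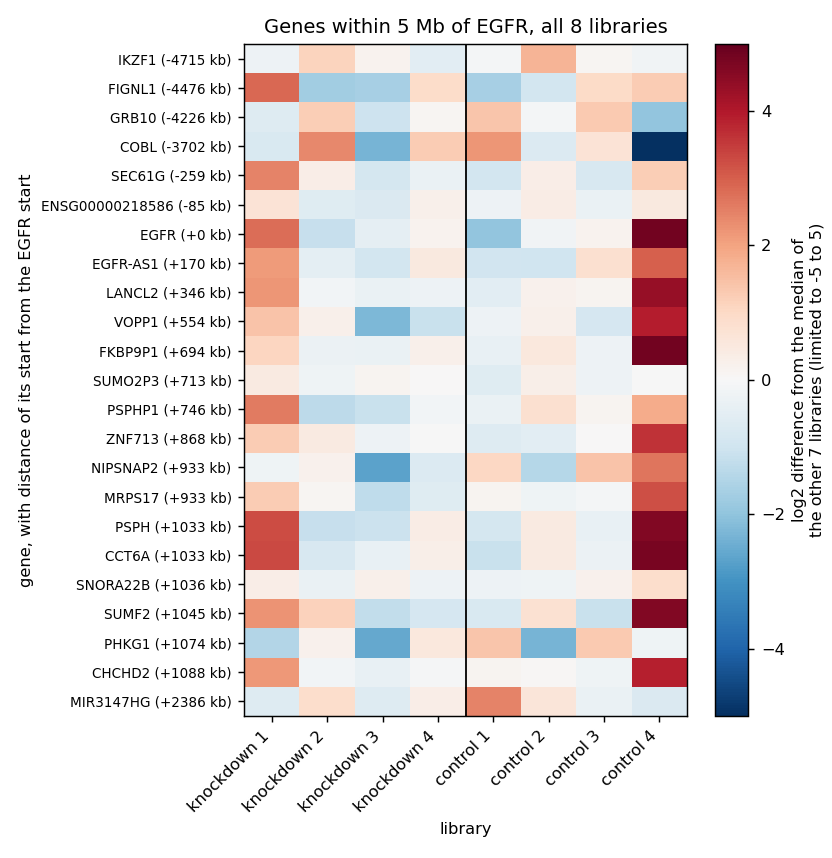
Log2 difference of each library from the median of the other 7 (colour, limited to -5 to 5) for the 23 genes past the filter within 5 Mb of EGFR, in chromosome order from top to bottom with the distance of each start from the EGFR start in kb; knockdown libraries are left of the black line and control libraries right of it. The red block from EGFR down to CHCHD2 stands in the columns of control 4 and, paler, knockdown 1, with PHKG1 and the weakly expressed SUMO2P3 and SNORA22B as gaps in control 4.

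To set the stretch beside the rest of the genome, the median difference was taken over every run of 10 consecutive genes past the filter on the autosomes, 19437 runs in all, a description added after seeing the data. In control 4, the run with the highest median (3.77) lay over the EGFR to CHCHD2 stretch, and the highest run that does not touch it had 2.33. In knockdown 1, the best run that touches the stretch had a median of 1.78. Runs counted here could begin outside the stretch and could hold both EGFR and EGFR-AS1. Elsewhere 44 runs were higher, the highest of them (5.37) in the cornified envelope cluster from IVL to SPRR2E on chromosome 1. In the other 6 libraries, at least 2629 runs elsewhere were higher.

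The genes most like EGFR were sought among the 21191 other genes past the filter, by the root mean square difference of their log2(CPM + 1) profiles over the 8 libraries, each centred on its own mean. CCT6A was closest (0.35), followed by PSPH (0.50) and LANCL2 (0.65), and CHCHD2 was in place 6 (0.85). Of the 10 closest named genes, 5 lie in the stretch, FKBP9P1 at place 9 being the fifth. The stretch holds 15 of the 21191 genes ranked. EGFR was singled out for its level in control 4, the library that stands out most in its profile. Genes high in control 4 therefore rank close to EGFR by the way the ranking was made, and closeness is only a description. The others were PLAC1, a placental gene (0.78), LCAL1, a long noncoding RNA (0.85), the IGF-like genes IGFL3 (0.86) and IGFL2 (0.88), and SNX6, a sorting nexin on chromosome 14 (0.93). Those 5 were also highest in control 4, which follows largely from the ranking, and PLAC1, LCAL1, IGFL3 and IGFL2 stood at 17.2 to 163 CPM there. FKBP9P1 and PLAC1 passed the filter only with their counts in control 4 included. SUMF2 was in place 18, VOPP1 in place 64 and SEC61G in place 397, while PHKG1 was in place 19047.

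Copies elsewhere in the genome could share reads with some members, and their counts are uncertain. PSPHP1, the pseudogene of PSPH inside the stretch, stood at 12.7 CPM in knockdown 1, 7.32 in control 4 and no more than 2.99 in the other 6. The CHCHD2 pseudogenes on chromosomes 1 and 9 (CHCHD2P6 and CHCHD2P9) were at 6.56 and 7.86 CPM in control 4, and CCT6P2 on chromosome 5, a CCT6A pseudogene, at 3.27 CPM. The 3 copies were high in the same 2 libraries, and in control 4 each had under 1% of the read count of its member.

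EGFR was also set beside the squamous epithelium markers, since the libraries differ in how much epithelial RNA they hold. As a share of the marker sum, EGFR stood at 1.75%, 8.25%, 0.24% and 1.16% in knockdown 1 to 4 and at 13.0%, 0.573%, 3.23% and 16.0% in control 1 to 4. Control 4 and control 2 held nearly the same marker sum, 69758 and 69182 CPM, and EGFR at 11162 and 396.1 CPM. Knockdown 1 and knockdown 3, the libraries with the largest sums, 158707 and 138842 CPM, held 2783 and 333.7 CPM of EGFR. Control 1, the library with the next highest share, had a marker sum of 882 CPM, the lowest of all. With TP63, DSP, PERP and CDH1 alone, epithelial markers that are not keratins, EGFR stood at 95.1% of the sum in control 4 and at 2.24% to 29.01% in the other 7 libraries.

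**Figure D4:**
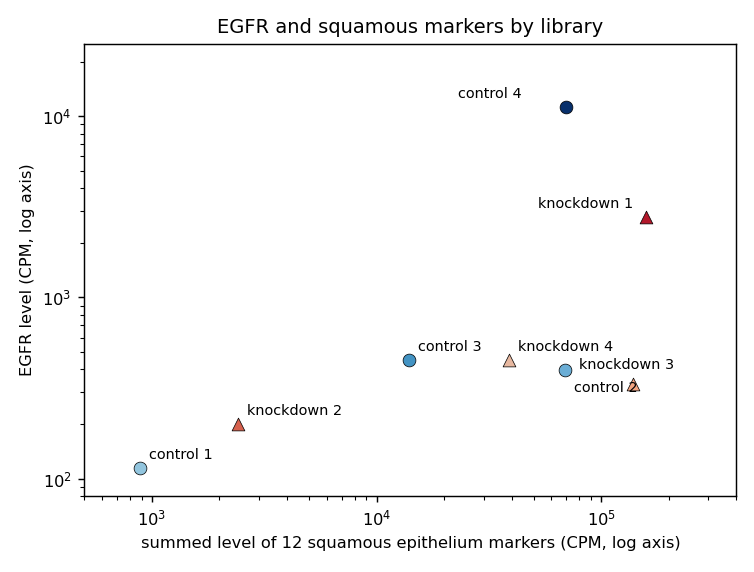
EGFR level against the summed level of 12 squamous epithelium markers, both in CPM on log axes, 1 point per library; triangles are knockdown and circles control. Control 4 lies at 11162 CPM of EGFR above control 2, which has nearly the same marker sum and 396.1 CPM.

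The other genes of the EGFR pathway were split between higher and lower in control 4. Of 49 listed pathway genes, 7 were high in control 4 and 14 were at least 2-fold lower, against 13.5% and 9.94% of all genes past the filter, and 0 were high at 8-fold. The count of 7 is not firm: it was 4 with TMM-scaled library sizes and 3 without genes over 1% of counts, or without knockdown 2, control 1 or control 3, while the 14 kept between 13 and 15 when 1 library was left out. The pathway median was -0.04, against 0.05 over all genes.

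Among the 7 EGF family ligands, 2 were high in control 4 and 3 low. AREG, an autocrine ligand of keratinocytes, was at 1.35 and highest in control 4 with 43.4 CPM, and EPGN was at 1.16. EGF itself was at 0.384 CPM in control 4, the lowest of the 8 libraries, and HBEGF was at 8.54 CPM there against 7.45 to 97.9 CPM in the other 7. EGF stood highest, at 49.6 to 75.9 CPM, in control 1, knockdown 2 and control 3, which are among the libraries with the most muscle or gland transcripts.

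Of the 3 partner receptors, 0 were high in control 4 and 1 was low. ERBB2 stood at 240.0, 240.3, 252.6 and 343.2 CPM in knockdown 1 to 4 and at 155.5, 260.6, 170.5 and 233.9 CPM in control 1 to 4, so that control 4 was within the range of the other libraries. ERBB3 was at -0.72 in control 4, and ERBB4 was at 0 there and in knockdown 3, and highest in knockdown 2 at 81.9 CPM. Among 16 adaptors and kinases of the cascade, 5 were high in control 4 and 0 low, led by NRAS at 1.55 (208.7 CPM, against 17.2 to 102.4 in the other 7) and the phosphatase PTPN11 at 1.15. The kinase MAPK3 was at -0.28.

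Of 11 negative regulators of the receptor, 0 were high and 4 low, with the ubiquitin ligases CBL at 0.87 and CBLB at 0.58, and the ERK-induced inhibitors SPRY2 at -2.69 and SPRY1 at -1.97. SPRY2 stood at 25.96 to 46.0 CPM in knockdown 2, knockdown 4, control 1 and control 3, the 4 libraries with the most muscle transcripts, and at 2.41 to 14.8 CPM in the other 4. SPRY1 was split in the same way, at 35.3 to 73.5 CPM in those 4 libraries and at 8.28 to 14.8 CPM in the other 4, and the part of muscle transcripts in either difference was not tested. Of 12 ERK target genes, 0 were high and 6 low (13.5% and 9.94% of all genes), with a median of -1.03. ETV4 was at 0.88 and EPHA4 at 0.67, while FOSL1 (-2.15) and EGR1 (-2.10) were lowest. In knockdown 1, by contrast, 6 of the 12 ERK target genes were high and 0 low (6.25% and 12.2% of all genes), with a median of 0.95, FOSL1 at 1.71 and EGR1 at 1.29. With 1 library on each side, this difference between control 4 and knockdown 1 has no replicate check. Low ERK target genes were not particular to control 4. In control 1, the library with the lowest EGFR, FOSL1 was at -3.17, EGR1 at -3.11 and EPHA2 at -2.11. DUSP4 (0.58), DUSP6 (0.29) and ETV5 (0.25) were above 0 there. Control 3 had the highest FOSL1 and EGR1, at 2.53 and 4.51.

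**Figure D5:**
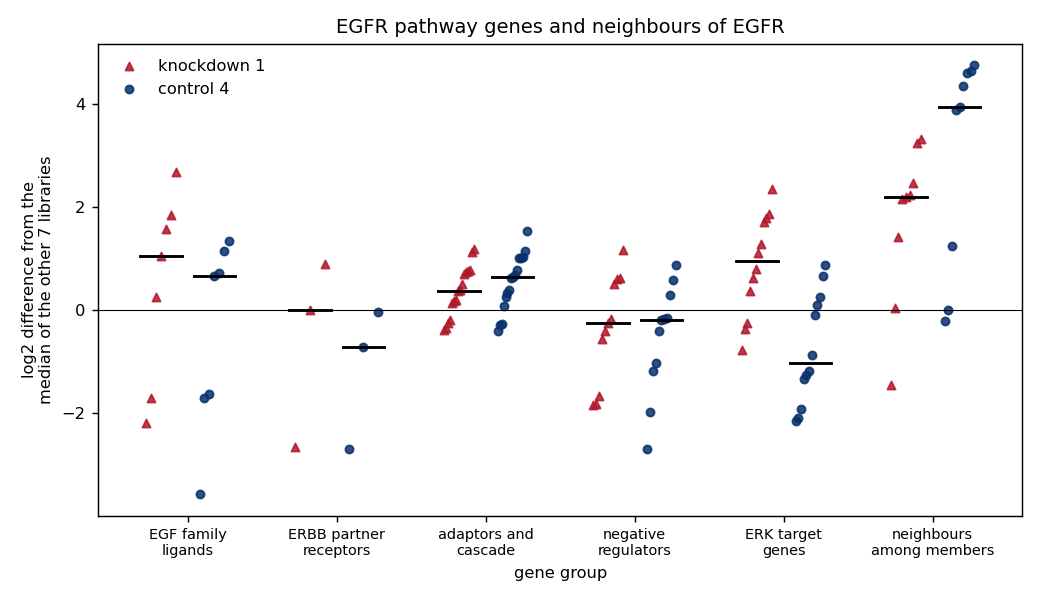
Log2 difference of knockdown 1 (red triangles) and control 4 (blue circles) from the median of their other 7 libraries, 1 point per gene, for the 5 roles of the EGFR pathway list and the 9 neighbours of EGFR; black bars are medians. In control 4 the neighbours have a median of 3.94 and the ERK target genes one of -1.03.

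Between the labels, no member passed the test. edgeR's quasi-likelihood test called 0 of 21192 genes at an adjusted p under 0.05 (0.0% of genes tested), with 1013 at an unadjusted p under 0.05, while limma-voom called 0 and DESeq2 146. The 8 tested neighbours had edgeR adjusted p-values of 0.981 to 0.993. Their log2 fold changes, knockdown minus control, were 1.06 for SEC61G (SE 0.778), -1.41 for LANCL2 (SE 1.19), -1.76 for VOPP1 (SE 1.16), -0.94 for PSPH (SE 1.41), -0.91 for CCT6A (SE 1.41), -1.47 for SUMF2 (SE 1.19), -1.05 for PHKG1 (SE 0.882) and -1.04 for CHCHD2 (SE 1.09). EGFR averaged 941.8 ± 1232 CPM in knockdown and 3032 ± 5423 CPM in control (SD, n = 4 each). Its fitted log2 fold change was -1.37.

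These folds followed the 2 libraries that stood apart. Without control 4, the log2 fold changes of EGFR, LANCL2, VOPP1, PSPH, CCT6A, SUMF2 and CHCHD2 were 1.91, 1.19, 0.46, 1.92, 2.05, 1.10 and 1.06, all turned from lower to higher in knockdown. Without knockdown 1 they were -3.02, -2.57, -2.80, -3.06, -2.80, -2.40 and -2.16, and that of SEC61G turned to -0.28. With both left out they were 0.27, 0.037, -0.57, -0.20, 0.17, 0.19 and -0.051, and SEC61G was at 0.26. PHKG1 stayed at -1.05 without both, and ran from -1.53 to -0.49 with each library left out. None of these fits called a member, and of the pathway list 0 of 49 genes were called in either direction, with 30 fitted higher and 19 lower in knockdown and a median of 0.14, against -0.05 over all genes tested.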

How the data were processed

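The 8 RNA libraries are labelled polyA, although the protocol in the labels removes ribosomal RNA. Their deposited values are raw gene counts in whole numbers. STAR, Subread's featureCounts and hg38 appear in the submitters' processing notes. Which versions, annotation and strand option were used is not given in the sources used here. Columns call the treated libraries a knockout where titles call them a knockdown, and were matched to titles by group and number. Symbols were matched to 62666 of 63241 rows and GENCODE release 29 positions (GRCh38) to 58228 rows by Ensembl identifier.

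CPM values use column totals. Knockdown was compared with control in edgeR 4.0.16 (R 4.3.3; quasi-likelihood test, TMM factors, filterByExpr, Benjamini-Hochberg adjusted p under 0.05), fitted over all 21192 genes past the filter and tested on simulated data. The log2 fold changes print edgeR's estimate, with a standard error taken from its F statistic. Comparisons of 1 library with the others have no test. Alternatives were limma-voom 3.58.1, DESeq2 1.42.0, other scalings, filters, pseudocounts, windows and folds, a replicate block and leaving out libraries. Same-numbered libraries did not deviate together in expression (correlations of -0.64 to -0.37), so the main fit did not pair them. Libraries of unlike number were not compared in this way, and whether equal numbers share any handling was not tested.

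The members, lists and rules were chosen with earlier results of these data known. The text names all members, the 10 genes closest to EGFR, the 2 highest and 2 lowest pathway genes of each role in control 4, and the 5 highest and 3 lowest genes within 5 Mb, with others marked where they were chosen after their values were seen. 1 pathway gene that this rule names is not reported here. Intervals were not computed, since differences between libraries far exceed counting error at these depths.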

Additional observations from a re-analysis of the deposited data

Results flagged for a closer look

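Across 54 gene rows described here or on their lists, each group of 4 libraries with at least 10 counts of the gene in 1 library was examined for a library whose gap to the nearest other takes most of the group's range (Dixon's test at its 95% critical value). Of 106 gene and group pairs, 37 were found, where chance gives about 1 in 20; many of the genes were named because of libraries that stand apart, so this count supports nothing.

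In control 4, such a gap was found for EGFR (11162 CPM), LANCL2 (413.9), VOPP1 (672.5), PSPH (342.2), CCT6A (2180), SUMF2 (1567) and CHCHD2 (1617). In the same library it was found for EGFR-AS1 (21.97 CPM), FKBP9P1 (33.9, and 68.5 in its second row), ZNF713 (37.2) and MRPS17 (66.9) in the stretch. Outside the stretch it was found there for PLAC1 (18.5 CPM), LCAL1 (163), IGFL3 (17.2), IGFL2 (41.2), SNX6 (568.6) and SRP54 (376.8), and for the pseudogene copies CHCHD2P6 (6.56), CHCHD2P9 (7.86) and CCT6P2 (3.27). In knockdown 1 it was found for SEC61G (79.7 CPM), EGFR (2783), LANCL2 (92.4), PSPH (129.6), CCT6A (804.3), CHCHD2 (487.4), PSPHP1 (12.7), PLAC1 (4.90), CHCHD2P6 (3.12) and CHCHD2P9 (4.65).

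In other libraries it was found for COL1A1 in control 2 (8183 CPM), MIR3147HG in control 1 (6.39), ERBB2 in knockdown 4 (343.2), ERBB4 in knockdown 2 (81.9), and FOSL1 (54.2) and EGR1 (1697) in control 3. None was found for PHKG1 or NIPSNAP2, and VSTM2A, with at most 2 counts in a library, was not examined.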

How the results depend on the processing

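The count of 7 of 9 neighbours high in control 4 was 7 under every alternative run except the 8-fold threshold (6), and their median ran from 3.85 to 4.23 with each other library left out. Within 5 Mb, 60.9% to 65.2% of genes were high in control 4 with each library left out, and within 10 Mb 34% were, with a median of 0.50, since more genes beyond the stretch entered. For knockdown 1 the count of 7 fell to 2 at 8-fold (8.70% of the genes within 5 Mb), the share within 10 Mb was 38.0%, and it was 56.5% to 60.9% with each library left out. Pathway genes high in control 4 numbered 4 with TMM, 3 without genes over 1% of counts, 16 at 1.5-fold and 0 at 8-fold (1 low at 8-fold), and 3 to 9 with each library left out. Leaving out genes over 1% of counts, EGFR among them, put the median of all genes in control 4 at -0.10, against 0.05. In knockdown 1, TMM moved it by over 0.1, from -0.17 to near 0, and the neighbours' median was then 2.47. Between labels, edgeR called 0 to 1 genes with each library left out (1 without knockdown 2) and DESeq2 146. With each library left out, fitted log2 fold changes ran from -3.02 to 1.91 for EGFR, -2.57 to 1.19 for LANCL2, -2.80 to 0.46 for VOPP1, -3.06 to 1.92 for PSPH, -2.80 to 2.05 for CCT6A, -2.40 to 1.10 for SUMF2 and -2.16 to 1.06 for CHCHD2, the first without knockdown 1 and the second without control 4, and from -0.28 to 1.59 for SEC61G in the same order. They turned without both for EGFR (0.27), LANCL2 (0.037), CCT6A (0.17) and SUMF2 (0.19). With the replicate block, edgeR called 0 genes and SUMF2 was at 0.051, although same-numbered libraries did not deviate together in expression. The cause of the SUMF2 turn was not tested. DESeq2 gave no adjusted p for 8 of the 9 tested members.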

Other observations

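Outside 7p11.2, the highest run of 10 consecutive genes in control 4 lay on chromosome 14, from SPTSSA to SRP54, and was chosen after its values were seen. There 8 of 10 genes were at least 2-fold above the median of the other 7 libraries, with a median difference of 2.33. SNX6, a sorting nexin and 1 of the 10 genes closest to EGFR in profile, stood at 65.8, 32.2, 48.4 and 44.3 CPM in knockdown 1 to 4 and at 17.2, 62.5, 38.8 and 568.6 CPM in control 1 to 4. BAZ1A, a chromatin remodelling subunit, was at 457.3 CPM in control 4 and at 12.3 to 111.5 CPM in the other 7, and SRP54, the GTPase of the signal recognition particle, at 376.8 against 31.4 to 59.4 CPM. In contrast to 7p11.2, knockdown 1 did not share this run: 0 of its 10 genes were high there, with a median of -0.03. CFL2, the muscle cofilin, was highest in control 3 (273.7 CPM) and control 1 (155.2 CPM).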
